A study of Mus musculus with 7 samples.

Results

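The genes described here are 32 genes of the unfolded protein response and of the protein-folding machinery of the endoplasmic reticulum (ER), chosen by name. All 32 were found among the 56440 features of the deposited expression table, and all 32 passed the filter on low values that left 16889 genes for testing. The libraries came from basal mammary cells of mice on day 2 of lactation, obtained by flow sorting of fresh tissue and read out by RNA sequencing. The control group, labelled Ctrl and Blgneg, has 4 libraries, and the mutant group, labelled a3a6KO and Blgpos, has 3 libraries described by the submitters as biological replicates. The name a3a6KO refers to a double knockout of the integrin subunits α3 and α6, which form receptors for laminin in the basement membrane. From general knowledge of the study, Blg denotes a Cre recombinase driven by the beta-lactoglobulin promoter, which is active in the milk-producing luminal cells, so that the sorted basal cells are neighbours of the targeted cells. Blg marks every mutant and no control, and its presence cannot be told apart from the loss of the integrins. The labels name no strain, age, allele, litter, pooling of animals or sorting gate, and the replicate numbers used here only name the libraries, in the order of the sample records.

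The unfolded protein response matches the folding capacity of the ER to the load of new secreted and membrane proteins. Its sensors IRE1 (gene Ern1), PERK (Eif2ak3) and ATF6 (Atf6) span the ER membrane and are held inactive by the chaperone BiP (Hspa5). When unfolded proteins bind BiP, IRE1 splices the Xbp1 messenger RNA, PERK phosphorylates the initiation factor eIF2α and so favours translation of ATF4, and ATF6 is cut in the Golgi to release a transcription factor. XBP1 and ATF6 drive genes of chaperones, disulfide isomerases and ER-associated degradation, and ATF4 drives genes of amino acid supply and the factor CHOP (Ddit3). Secretory epithelia such as the lactating mammary gland are rich in this machinery, most of all in the luminal layer. Counts per gene do not show Xbp1 splicing, phosphorylation or cleavage, so only transcript levels are described here.

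ATF6 and XBP1 are known to act through the ER stress response element, ERSE, which joins a CCAAT box to a second part across a fixed gap. RefSeq promoter windows (GRCm38.p6, 250 bases before to 50 after the gene's start) were matched for 28 of the 32 genes, the others being Hyou1, Manf, Derl1 and Atf6. This element, CCAAT followed after 9 bases of any kind by CCACG and searched on both strands, was found in 9 of these 28 windows (32.1%) and in 39 of 32851 windows of all genes (0.119%). The 9 genes were Hspa5, Calr, Hsp90b1, Canx, Pdia6, Creld2, Dnajc3, Derl3 and Syvn1. A related element, ERSE-II (ATTGG, 1 base of any kind and CCACG), was found in 2 windows (7.14%, against 0.0365% of all windows), those of Herpud1 and Dnajb11. The elements are shown for 7 genes on which the results below turn. The sequences read 5′ to 3′ along the gene with the match in capitals, and with fewer flanking bases for Hspa5, where a GENCODE exon overlaps them. In Calr, Creld2, Derl3 and the second site of Hsp90b1 the element lies on the opposite strand, so that it begins with CGTGG and ends with ATTGG.
Hspa5 (chr2:34772020-34772048, plus strand): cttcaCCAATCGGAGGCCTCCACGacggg
Calr (chr8:84847055-84847113, minus strand): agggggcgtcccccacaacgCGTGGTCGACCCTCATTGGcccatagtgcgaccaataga
Hsp90b1, first site (chr10:86705618-86705676, minus strand): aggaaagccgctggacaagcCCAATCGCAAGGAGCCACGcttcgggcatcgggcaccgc
Hsp90b1, second site (chr10:86705513-86705571, minus strand): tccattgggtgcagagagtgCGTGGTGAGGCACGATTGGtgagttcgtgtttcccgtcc
Pdia6 (chr12:17266471-17266529, plus strand): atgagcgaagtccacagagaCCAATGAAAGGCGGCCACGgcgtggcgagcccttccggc
Creld2 (chr15:88819500-88819558, plus strand): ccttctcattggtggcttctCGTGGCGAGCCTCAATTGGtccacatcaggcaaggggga
Derl3 (chr10:75893222-75893280, plus strand): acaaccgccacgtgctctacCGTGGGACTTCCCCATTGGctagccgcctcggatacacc
Herpud1, ERSE-II (chr8:94386357-94386407, plus strand): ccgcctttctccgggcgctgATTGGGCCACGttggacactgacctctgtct
The first base of the element lies 65 bases before the start in Hspa5, 162 in Calr, 212 and 107 in Hsp90b1, 98 in Pdia6, 126 in Creld2, 156 in Derl3 and 52 in Herpud1. The parts of the element were common on their own: CCAAT was present in 78.6% of the 28 windows and 37.4% of all windows, and CCACG in 82.1% and 32.8%. The letters TGACGTGG, the core of another XBP1 and ATF6 element, were in 0 of the 28 windows and 0.676% of all windows. The letters TTGCATCA, one form of the amino acid response element bound by ATF4, were in the windows of Chac1 and Herpud1 (7.14%, against 0.895% of all windows), and the CREB site TGACGTCA was in that of Ppp1r15a (3.57%, against 1.79%). A match describes these letters in the window and is not a measurement of binding.

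No gene of the response passed the test between the groups. With limma on log2(value + 1), 0 of the 32 genes had an adjusted p under 0.05, where the share called over all 16889 genes was 0%. The share called by edgeR was 0% of 17228 genes, and DESeq2 called 72 of 17168 genes (0.419%), none of them among the 32. Log2 fold changes, taken as a3a6KO minus Ctrl, were above 0 in 25 of the 32, against 49.5% of all genes tested (8357). Among the 2565 genes with a mean value of at least 1000, 1514 were above 0. The median over the 32 was 0.14, beside −0.0040 over all genes and 0.046 over the 2565 genes with a mean value of at least 1000. None of the 32 had groups that did not overlap, where 4.00% of all genes lay wholly higher and 3.51% wholly lower in a3a6KO. At an unadjusted p under 0.05, limma placed 1 of the 32, Creld2, among 1068 of all genes (6.32%, with 3.55% higher and 2.78% lower), and edgeR counted 1031 genes (5.98%), 1 of the 32 among them. The count of 25 and the median moved with single libraries: without Ctrl replicate 1 they were 17 and 0.013, without a3a6KO replicate 3 they were 19 and 0.042, and without a3a6KO replicate 2 they were 28 and 0.24. On the recovered reads the median was 0.069 with edgeR and 0.075 with DESeq2.

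**Figure D1:**
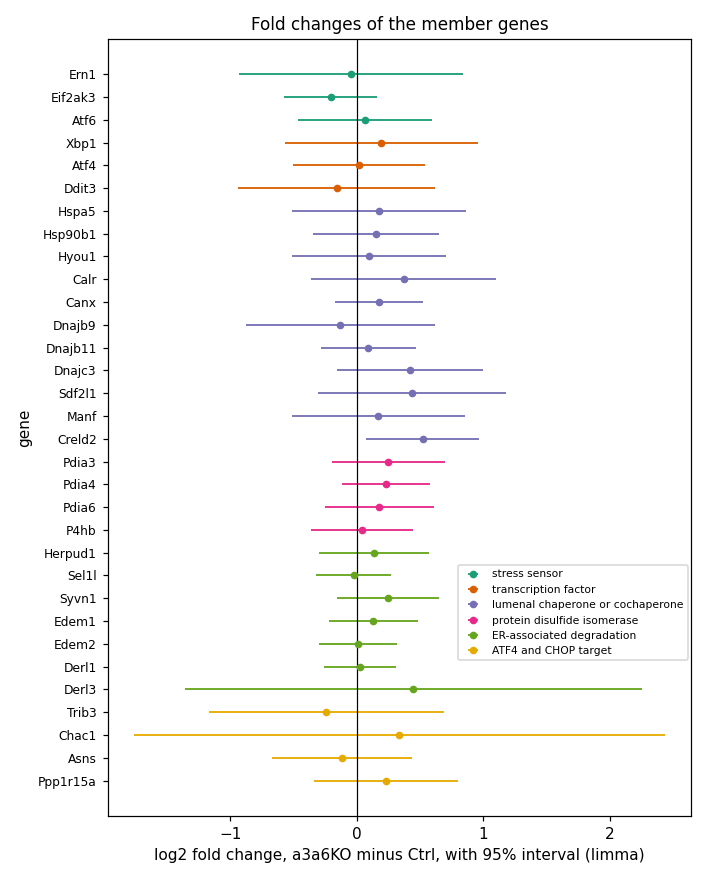
Log2 fold change of each of the 32 genes, a3a6KO minus Ctrl (horizontal axis), as a point with its 95% interval from limma over 4 Ctrl and 3 a3a6KO libraries, coloured by role. The interval of Creld2 alone leaves out 0, and those of Derl3 and Chac1 are the widest.

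The machinery spanned a wide range of levels. Per kb of exon (GENCODE M21), the highest mean normalised read counts in Ctrl were those of Ppp1r15a (5368, with the 4 controls between 4494 and 6372), Hsp90b1 (4391 ± 1194, SD, n = 4), Hspa5 (3806 ± 1284), Calr (3643 ± 1433) and Atf4 (2653 ± 399). These top 5 do not differ from their neighbours in the order beyond their spread. The disulfide isomerases followed, with 2506 ± 606 per kb for Pdia3, 2145 ± 405 for P4hb, 1764 ± 408 for Pdia6 and 1677 ± 281 for Pdia4, and Xbp1 lay among them at 1687 ± 845 per kb. At the low end stood Derl3 (19.5 ± 21.0 per kb), Trib3 (18.3 ± 3.78), Chac1 (18.1 ± 17.3) and Ern1 (4.00 ± 1.39). The sensors Eif2ak3 (48.9 ± 2.65 per kb) and Atf6 (35.5 ± 2.45) were also in the lower part of the range.

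**Figure D2:**
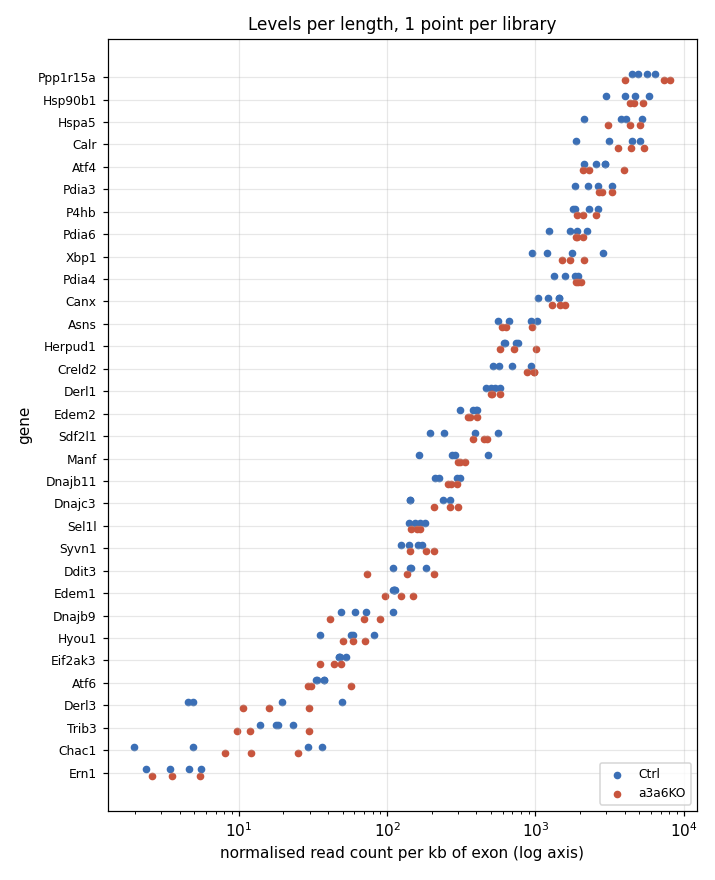
Normalised read count per kb of exon on a log axis for each of the 32 genes, ordered by the Ctrl mean, with 1 point per library (blue Ctrl, n = 4; red a3a6KO, n = 3). Levels ran from 4.00 per kb for Ern1 to 5368 for Ppp1r15a in the Ctrl mean, and the points of both groups overlap for every gene.

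The sensors did not separate the groups. Eif2ak3, the PERK kinase, gave normalised read counts of 229, 229.5, 232 and 256 across the controls beside 236, 212 and 171 across the mutants, each in replicate order as in all values that follow, and a log2 fold change of −0.21 (SE 0.16, 95% interval −0.57 to 0.16, limma adjusted p = 0.849). The controls lay close together, and a3a6KO replicates 2 and 3 lay below all of them. A pair of values in brackets below gives the log2 fold change and its SE, and for the genes named with it alone the limma adjusted p was above the threshold. Atf6 stood at 245, 274, 239.6 and 272 across the controls, against 223, 212 and 411 across the mutants (0.07, SE 0.23). Here a3a6KO replicates 1 and 2 were the lowest of the 7 libraries and replicate 3 the highest, and without replicate 3 the value was −0.24. Ern1, the splicing enzyme for Xbp1, gave control values of 28.1, 45.2, 19.3 and 37.8 beside mutant values of 29.0, 21.1 and 44.5 (−0.04, SE 0.39).

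Of the transcription factors, Xbp1 varied most among the controls. Xbp1 (GSMG0004852, mm10 chromosome 11, 5520641 to 5525992) stood at 2255, 2866, 4196 and 6803 across the controls, against 4065, 3613 and 5078 across the mutants, so that the 3 mutants lay inside a 3.02-fold range of the controls. Its log2 fold change was 0.19 (SE 0.34, 95% interval −0.57 to 0.95, limma adjusted p = 0.925) and −0.044 without Ctrl replicate 1. Atf4 gave control values of 3664, 5117, 4423 and 5099 beside mutant values of 3943, 3593 and 6795 (0.01, SE 0.23). Ddit3, which encodes the pro-apoptotic factor CHOP, stood at 97.4, 128, 162 and 129 across the controls, against 122, 64.6 and 185 across the mutants (−0.16, SE 0.34). For Atf4 and Ddit3 the lowest and the highest of the 7 libraries were a3a6KO replicates 2 and 3, so the mutant spread covered that of the controls.

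The lumenal chaperones and cochaperones gave 10 of 11 log2 fold changes above 0, with a median of 0.17. Without Ctrl replicate 1 the count was 6 of 11 and the median 0.076. Hspa5 (GSMG0020948, mm10 chromosome 2, 34772090 to 34777547), the chaperone BiP, gave control values of 7954, 14276, 15277 and 19639 beside mutant values of 16338, 11517 and 19048. Ctrl replicate 1 was the lowest library and Ctrl replicate 4 the highest, with all 3 mutants between them. The group means were 14286 ± 4821 (SD, n = 4) and 15634 ± 3815 (SD, n = 3), with a log2 fold change of 0.17 (SE 0.30, 95% interval −0.51 to 0.86, limma adjusted p = 0.925). Without Ctrl replicate 1 it was −0.086.

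Calr encodes calreticulin, a chaperone of sugar-bearing proteins, and stood at 4121, 6822, 9722 and 11161 across the controls, against 9585, 7834 and 11785 across the mutants (0.37, SE 0.32). Its membrane-bound relative calnexin, Canx, gave control values of 4479, 5233, 6153 and 6178 beside mutant values of 6256, 5531 and 6740 (0.17, SE 0.15). Hsp90b1, the ER form of HSP90, stood at 8496, 11312, 13301 and 16510 across the controls, against 13029, 12268 and 15020 across the mutants (0.15, SE 0.22). In all 3 genes Ctrl replicates 1 and 2 were the lowest libraries and the mutants overlapped the other controls. Without Ctrl replicate 1 the log2 fold changes were 0.086 for Calr, 0.076 for Canx and −0.016 for Hsp90b1.

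Creld2, a cysteine-rich ER protein induced by ER stress, had the largest log2 fold change of the 32. Creld2 (GSMG0013508, mm10 chromosome 15, 88819644 to 88826681) gave control values of 706.9, 770.0, 947.5 and 1267 beside mutant values of 1337, 1328 and 1205. Each mutant library exceeded Ctrl replicates 1 to 3, and Ctrl replicate 4 lay above a3a6KO replicate 3. The log2 fold change was 0.52 (SE 0.20, 95% interval 0.07 to 0.97), with a limma adjusted p = 0.738. It lay between 0.40, without Ctrl replicate 1, and 0.68, without Ctrl replicate 4, over the 7 fits that each left out 1 library. Without Ctrl replicate 1, Ctrl replicate 2 or a3a6KO replicate 1, its unadjusted limma p was not under 0.05.

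Sdf2l1, a partner of the BiP cochaperones, stood at 217, 268, 432 and 619 across the controls, against 499, 419 and 523 across the mutants (0.44, SE 0.33). Dnajc3, a BiP cochaperone and inhibitor of PERK, gave control values of 735, 731, 1230 and 1359 beside mutant values of 1355, 1056 and 1536 (0.42, SE 0.26). In both genes Ctrl replicates 1 and 2 were below all 5 other libraries. The log2 fold change of Sdf2l1 was 0.20 without Ctrl replicate 1 and 0.71 without Ctrl replicate 4. Manf, a secreted ER stress protein, stood at 404, 673, 704 and 1178 across the controls, against 762, 736 and 829.1 across the mutants (0.17, SE 0.30). The other members of the class were Dnajb11 (683 to 1008 in Ctrl and 835 to 953 in a3a6KO), Hyou1 (168 to 387 and 241 to 339) and Dnajb9 (119.5 to 268 and 102 to 219). Dnajb11 and Dnajb9 encode BiP cochaperones and Hyou1 its nucleotide exchange factor. Dnajb9 gave the only log2 fold change below 0 in the class, −0.13 (SE 0.33).

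The 4 protein disulfide isomerases, which form and rearrange disulfide bonds, all had log2 fold changes above 0, with a median of 0.20 and 0.065 without Ctrl replicate 1. Pdia4 gave control values of 3182, 3790.0, 4456 and 4668 beside mutant values of 4829, 4494 and 4672 (0.23, SE 0.15, 95% interval −0.12 to 0.58). Pdia3, which works with calnexin and calreticulin, stood at 5126, 6225, 7360 and 9056 across the controls, against 7769, 7466 and 9040 across the mutants (0.25, SE 0.20). Pdia6 gave control values of 2700, 3705, 4119 and 4822 beside mutant values of 4523, 4102 and 4117 (0.18, SE 0.19). In these 3 genes the mutants lay near the upper controls and Ctrl replicate 1 was the lowest. Without it the log2 fold changes were 0.12 for Pdia4, 0.11 for Pdia3 and 0.018 for Pdia6. P4hb, also a subunit of collagen prolyl hydroxylase, stood at 5252, 5145, 6580 and 7571 across the controls, against 5496, 5967 and 7355 across the mutants (0.04, SE 0.18).

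In ER-associated degradation, which returns misfolded proteins to the cytosol, 6 of 7 log2 fold changes were above 0 with a median of 0.13. The count and median were 4 and 0.018 with edgeR, 5 and 0.023 with DESeq2, 6 and 0.046 without Ctrl replicate 1, and 4 and 0.029 without a3a6KO replicate 3. Leaving out Ctrl replicate 2 gave 5 and 0.037, and leaving out a3a6KO replicate 2 gave 5 and 0.29. Syvn1, the ubiquitin ligase HRD1, gave control values of 452, 512, 594 and 629 beside mutant values of 672, 519.5 and 763 (0.25, SE 0.18). Herpud1, which helps assemble the HRD1 complex, stood at 1200, 1441, 1486 and 1217 across the controls, against 1389, 1133 and 1970 across the mutants (0.13, SE 0.19). Edem1, a factor that extracts misfolded glycoproteins, gave control values of 649, 634, 651 and 653 beside mutant values of 722, 567 and 866 (0.13, SE 0.16). The 4 controls of Edem1 lay within 1.03-fold of each other, and the mutants lay on both sides of them. Sel1l, the adaptor of HRD1 (−0.03, SE 0.13), Edem2 (0.01, SE 0.14) and Derl1, a channel component (0.03, SE 0.13), had the 3 narrowest intervals of the 32: −0.32 to 0.27, −0.30 to 0.32 and −0.26 to 0.31.

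Derl3 and Chac1 were the least certain of the genes. Derl3, a derlin found in secretory cells, stood at 6.03, 6.46, 25.7 and 65.1 across the controls, against 14.1, 21.1 and 39.1 across the mutants (0.45, SE 0.80). Chac1, which degrades glutathione downstream of ATF4 and CHOP, gave control values of 8.03, 3.23, 47.7 and 59.8 beside mutant values of 13.3, 19.8 and 40.9 (0.34, SE 0.93). In both genes Ctrl replicates 1 and 2 were the lowest of the 7 libraries and Ctrl replicate 4 the highest, a range of 10.8-fold and 18.5-fold among controls. Since 1 read was worth 0.756 to 1.78 of these units, the low values rest on few reads. Their fold changes turned to −0.12 and −0.33 with edgeR.

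The remaining targets of ATF4 and CHOP had no common direction. Ppp1r15a, the GADD34 subunit that reverses eIF2α phosphorylation, stood at 14464, 18709, 16674 and 13194 across the controls, against 21724, 11837 and 23836 across the mutants (0.23, SE 0.25). Asns, the asparagine synthetase, gave control values of 1212, 1425, 2003 and 2198 beside mutant values of 1370, 1280 and 2035 (−0.12, SE 0.24). Trib3, a pseudokinase induced by CHOP, stood at 28.1, 37.2, 46.8 and 36.3 across the controls, against 24.0, 19.8 and 60.5 across the mutants (−0.24, SE 0.41). For Ppp1r15a and Trib3 the lowest and the highest libraries were both mutants. Leaving out a3a6KO replicate 3 brought the log2 fold change of Ppp1r15a to 0.038, and leaving out replicate 2 brought it to 0.54.

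**Figure D3:**
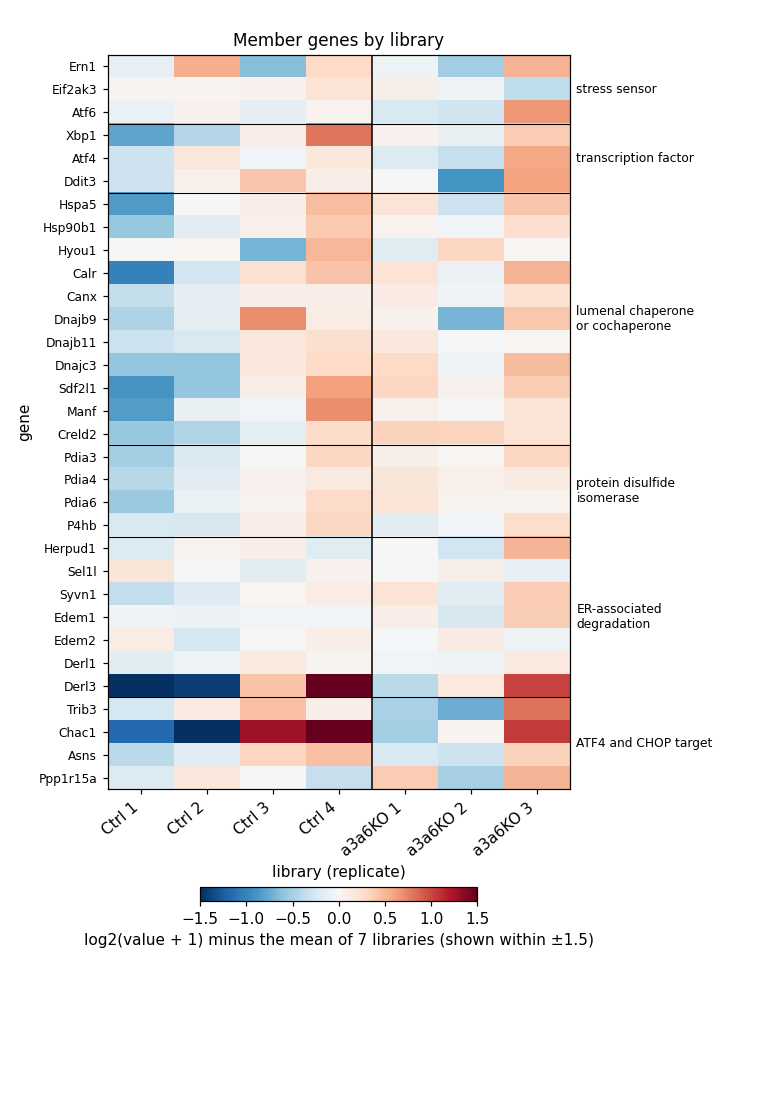
Each of the 32 genes (rows, by role) in the 7 libraries (columns), as log2(value + 1) minus the gene's mean over the 7 libraries, with blue below and red above it and colours limited to ±1.5. Of the 15 chaperone and isomerase rows, 11 have their lowest value in Ctrl replicate 1, and the rows of Atf4, Ddit3 and Trib3 are blue in a3a6KO replicate 2 and red in a3a6KO replicate 3.

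Libraries of the same group differed from each other in many of these genes. Ctrl replicate 1 was the lowest of the 7 libraries for 16 of the 32 genes (50%) and for 11 of the 15 chaperones and isomerases (73.3%), against 18.5% of all genes tested and 23.8% of genes with a mean of at least 1000. Shares differed between other lists. Ctrl replicate 1 was also the lowest for 8 of 16 genes of entry into and export from the ER and 7 of 15 other ER folding genes. The same held for 7 of 10 endothelial markers, a list in which the controls lay lower as a group. The share was 2 of 10 other degradation genes, 2 of 8 cytosolic heat shock genes, 1 of 10 basal markers and 0 of 8 milk protein genes. Ctrl replicate 4 was the highest for 14 of the 32 (43.8%), against 8.92% and 6.43%. It was also the highest for 7 of 10 luminal markers and 7 of 8 milk protein genes. Among other ER folding genes the count was 2 of 15, and among genes of entry and export 2 of 16. Ctrl replicate 1 lowest and Ctrl replicate 4 highest held together for 10 of the 32 (31.2%). That compares with 2.00% of all genes and 1.91% of those with a mean of at least 1000. These 10 were Xbp1, Hspa5, Hsp90b1, Dnajb11, Sdf2l1, Manf, Pdia3, Pdia6, Derl3 and Asns. The SD of log2 values over the controls had a median of 0.49 in the chaperones and 0.31 in the isomerases, beside 0.17 and 0.11 over the mutants. Over all genes these medians were 0.30 and 0.32, and over those with a mean of at least 1000 they were 0.189 and 0.187. The pattern was noticed in the values, is a description and carries no test.

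A second arrangement took in Atf4 and genes of several roles. In 7 genes a3a6KO replicate 2 was the lowest and a3a6KO replicate 3 the highest of the 7 libraries: Atf6, Atf4, Ddit3, Herpud1, Edem1, Trib3 and Ppp1r15a. That is 21.9% of the 32, against 4.05% of all genes and 6.55% of those with a mean of at least 1000. It did not hold for Asns and Chac1, which are also targets of ATF4 and CHOP. Of 16 other ATF4 response genes, a3a6KO replicate 2 was the lowest for 4 and a3a6KO replicate 3 the highest for 4. In all genes tested these shares were 13.3% and 21.7%. a3a6KO replicates 2 and 3 also had the fewest reads of the 7 libraries, 10861835 and 9368418, beside 14480615 to 21548279 in the others. The summed level of 8 cytosolic heat shock genes was 108994 in a3a6KO replicate 2 and 129578 to 174326 in the other libraries. The summed level of 10 immediate-early genes, which tissue dissociation can induce, was 332149 there and 346944 to 639796 elsewhere. The highest library for both sums was a3a6KO replicate 1, at 174326 and 639796. Sums in a3a6KO replicate 3 were 164955 for heat shock and 407753 for immediate-early genes. The part of depth, heat shock or dissociation in the arrangement was not tested.

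The genes with an ERSE in the promoter window were also counted on their own. Of these 9, 8 were lowest in Ctrl replicate 1, the exception being Dnajc3, which was lowest in Ctrl replicate 2. All but Derl3 and Syvn1 are chaperones or isomerases, of which 11 of 15 were lowest in Ctrl replicate 1. Of the 19 genes whose window lacked an ERSE, among which Herpud1 and Dnajb11 had an ERSE-II, 6 were lowest in Ctrl replicate 1. Among them were the chaperones and isomerases Dnajb11, Sdf2l1, Pdia3 and Pdia4, but not Dnajb9 and P4hb. The part of role in this split was not tested. The log2 fold changes of the 9 ran from 0.15 to 0.52 with a median of 0.25, and those of the 19 had a median of 0.039 with 12 above 0. Without Ctrl replicate 1 the 9 ran from −0.086 to 0.40 with a median of 0.076 and 7 above 0, and the 19 had a median of −0.004 with 8 above 0. Without a3a6KO replicate 3 the medians were 0.12 and −0.078, and without a3a6KO replicate 2 they were 0.40 and 0.20. With edgeR they were 0.16 and 0.025. This split was made after the values had been seen and was not tested.

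Markers of other cell types also varied between the libraries. All 10 basal markers were above 0 in every library, with a mean log2 level of 15.3 to 15.5. Being above 0 cannot check the sort, since the luminal and milk protein genes below were also above 0 in every library. Log2 fold changes were above 0 in 3 of the 10 basal markers (median −0.065). In 1 of the 10 a3a6KO lay wholly lower, as in 3.51% of all genes. The smallest p among the 10 was that of the oxytocin receptor gene Oxtr (−0.57, SE 0.26). Krt14, a keratin of basal cells, had 35785 to 79196 (0.35, SE 0.24). Of the 10 luminal markers none was at 0, and their mean log2 level was 8.35, 8.32, 9.56 and 10.1 in Ctrl and 8.58, 8.64 and 9.57 in a3a6KO. Their summed level, with the keratin Krt8 among its most abundant genes, stood at 33518, 18928, 23572 and 29254 across the controls. Across the mutants it stood at 18423, 23771 and 26293. Ctrl replicate 1 thus had the highest luminal sum, although its mean log2 level was among the low ones. It was the highest library for Krt8 (17769) and for the keratin Krt19 (12155). The 8 milk protein genes, also above 0 in every library, had log2 fold changes above 0 in 0 of 8 (median −0.99). Their mean log2 level in Ctrl replicates 3 and 4, 15.7 and 16.1, lay above that of the basal markers there, 15.4 and 15.5. The milk protein genes summed to 249403, 178476, 899550 and 1216122 in Ctrl and to 127082, 217196 and 521479 in a3a6KO. Ctrl replicates 1 and 2 were thus low and Ctrl replicates 3 and 4 high in milk transcripts. In Xbp1, Sdf2l1, Dnajc3, Derl3, Chac1 and others of the 32, Ctrl replicates 1 and 2 also lay below 3 and 4. In Ern1, Atf4, Sel1l, Herpud1 and Ppp1r15a, among others, they did not. a3a6KO replicates 1 and 2 also had low milk sums. The lower of these sums was in replicate 1, which exceeded replicate 2 in Xbp1, Sdf2l1 and Dnajc3 but not in Derl3 and Chac1. Summed over the 11 chaperones, the level was 28187, 41243, 49156 and 59485 across the controls, against 50527, 41964 and 58057 across the mutants. How the chaperone sums relate to the milk sums was not tested. The part of luminal cells or of their free RNA in these results was not tested, and in sorted bulk RNA fewer cells of a type and less RNA per cell cannot be told apart.

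The endothelial markers stood apart between the groups. All 10 had log2 fold changes above 0 with a median of 1.02. In 8 of them a3a6KO lay wholly higher, against 4.00% of all genes. DESeq2 called 7, where it called 0.419% of all genes, while limma and edgeR called 0. Their summed level was 4103 to 7026 in Ctrl and 9091 to 12584 in a3a6KO. Egfl7, a protein secreted by endothelium, gave control values of 384.6, 421.7, 352.5 and 505.3 beside mutant values of 818.6, 1131 and 964.3 (1.22, SE 0.17, limma adjusted p = 0.497, DESeq2 adjusted p = 1.37e-05). Of 9 fibroblast markers 6 were above 0, with summed levels of 16724 to 27710 in Ctrl and 21130 to 31453 in a3a6KO. Of 10 immune markers 7 were tested and 4 of these were above 0, with sums of 878 to 3150 in Ctrl and 1220 to 3477 in a3a6KO. Of the 8 markers of plasma cells, which are rich in XBP1 targets, 2 to 4 were at 0 in each library. Tnfrsf17 was at 0 in all of them and Jchain was above 0 only in Ctrl replicates 3 (27.5) and 4 (18.2), while Pou2af1 (20.1 to 62.2), Irf4 (1.004 to 14.7) and Txndc5 (3187 to 4747), which is not specific to these cells, were above 0 in all. The part of endothelial or stromal RNA in the values of the 32 genes was not tested.

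**Figure D4:**
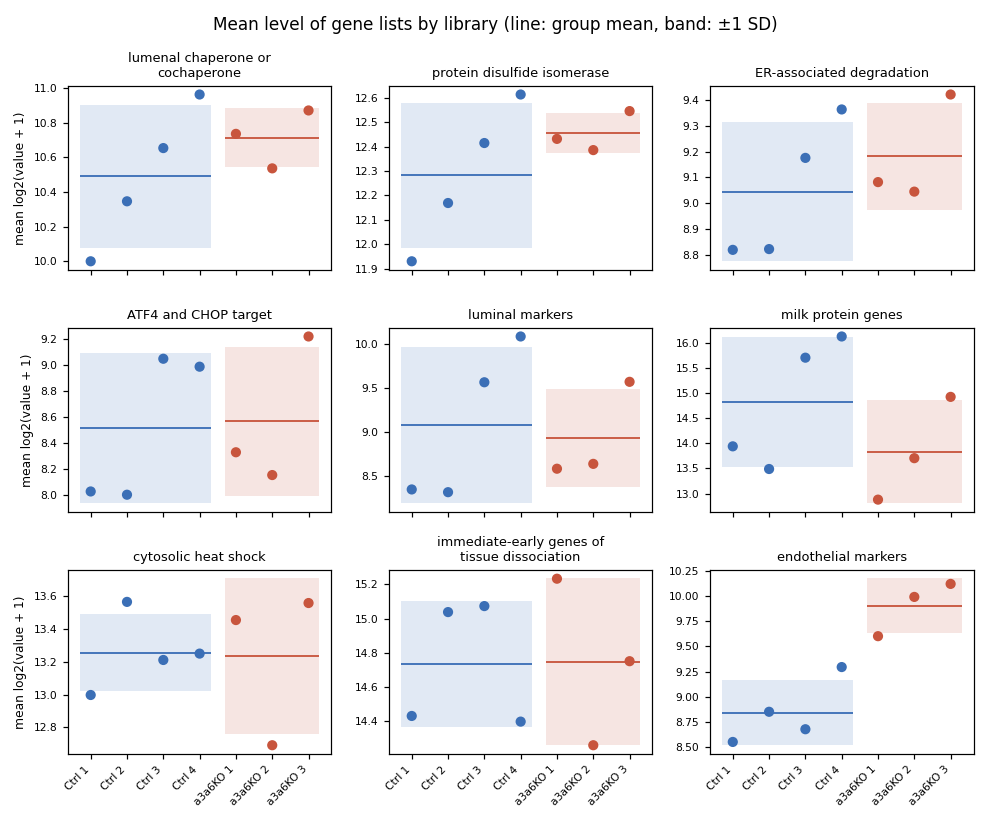
Mean log2(value + 1) of 9 gene lists in each library (points; blue Ctrl, n = 4; red a3a6KO, n = 3), with the group mean as a line and ±1 SD as a band, each panel with its own vertical scale. The chaperones are lowest in Ctrl replicate 1 and highest, at 10.96, in Ctrl replicate 4 with the mutants between, and only the endothelial markers show groups that do not overlap.

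Further genes of the same pathways gave no calls by limma, edgeR or DESeq2. Of 15 other ER folding genes, 9 were above 0 (median 0.040). Txndc5, a disulfide isomerase, stood at 3571, 3187, 3536 and 3884 across the controls, against 4497, 4747 and 4267 across the mutants, with no overlap (0.35, SE 0.12, limma adjusted p = 0.691). The others named by the smallest p were Pdia5 (0.51, SE 0.31), Dnajc10 (−0.21, SE 0.13) and Erp29 (0.13, SE 0.12). Of 10 other degradation genes 6 were above 0 (median 0.066), with the lowest p for the ubiquitin-conjugating enzyme Ube2g2 (0.48, SE 0.25). Of 16 genes of entry into and export from the ER 11 were above 0 (median 0.051), the retrieval receptor Kdelr3 having the lowest p (0.31, SE 0.19).

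Among 11 other genes of stress signalling 9 were above 0 (median 0.064). Creb3l1, an ER-anchored factor of secretory and matrix-producing cells, gave control values of 57.2, 73.5, 139.6 and 89.3 beside mutant values of 122, 133 and 123 (0.56, SE 0.29), with overlap through Ctrl replicate 3. Of 16 other genes of the ATF4 response 10 were above 0 (median 0.17). In 2 of the 16 a3a6KO lay wholly higher, as in 4.00% of all genes. Phgdh, the first enzyme of serine synthesis, stood at 779, 808, 811 and 949 across the controls, against 954.5, 1156 and 1114 across the mutants (0.36, SE 0.13, limma adjusted p = 0.713). Shmt2, a mitochondrial serine hydroxymethyltransferase, gave control values of 732, 744, 705 and 791 beside mutant values of 866, 915 and 863 (0.25, SE 0.11, limma adjusted p = 0.785). Stc2, a secreted glycoprotein of the PERK arm, stood at 56.2, 59.8, 135 and 163 across the controls, against 218, 216 and 103 across the mutants (0.86, SE 0.44). The lipoprotein receptor Vldlr had a log2 fold change of −0.56 (SE 0.32), with Ctrl replicates 1 and 2 near 2821 and 2867 and the other 5 libraries between 1123 and 1398. Of 8 cytosolic heat shock genes 3 were above 0 (median −0.060), and of 10 immediate-early genes 5 (median 0.012).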

How the data were processed

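The authors deposited 1 signal value for each gene in each library, which is its count after division by a DESeq2 size factor, per the file headers and the submitters' processing notes. Build mm10 and the tools STAR 2.4.0, SAMtools, Picard and FastQC are listed there too. How reads were counted, and whether by strand, is not stated, so overlapping genes may share reads. Whole reads were recovered from the deposited values for 100% of values within 0.01 of a read (9368418 to 21548279 a library).

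Members and lists were chosen with earlier results of these data known. Rows naming a microRNA with Pdia4 or Syvn1 were taken as the gene, and of 3 Eif2ak3 features the one with the highest mean was used. Genes reaching 10 in 3 or more libraries were tested with limma 3.58.1 (R 4.3.3, trend, pseudocount 1, two-sided, Benjamini-Hochberg over all genes, threshold 0.05). The log2(value + 1) scale understates changes of low genes. Alternatives were pseudocounts, filters, quantile normalization, library weights, edgeR 4.0.16 and DESeq2 1.42.0 on the reads, and leaving out each library. Scripts were tested on simulated data. The naming rule took all 32 genes, up to 4 genes by smallest p from each other list, marker lists included, and up to 3 by level from marker lists, without predicted genes. Tnfrsf17 and Jchain were named after their values were seen.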

Additional observations from a re-analysis of the deposited data

Results flagged for a closer look

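Eif2ak3 had a value of 255.7 in Ctrl replicate 4, set apart from the other controls, which lay between 228.9 and 232.3. Its gap to the nearest control was large relative to the range of the group by Dixon's criterion. Of 53 groups of values examined in this way it was the single one marked, and chance marks about 1 in 20.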

How the results depend on the processing

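No paired analysis was possible because the labels give no replicate numbers, litters or pairs; the numbers used here only name libraries. The count of genes past the threshold was 0 under limma with every setting and with each library left out (0 to 0) and under edgeR, and 72 with DESeq2. The count among the 32 genes was 0 throughout. Their median log2 fold change lay between 0.013 and 0.24 with 1 library left out, and was 0.069 with edgeR, 0.075 with DESeq2, 0.094 with quantile normalization and 0.11 with library weights. Of 476 values of single genes under alternatives, 429 kept their direction and side of the threshold, and 11 genes kept their direction in all. Directions turned with quantile normalization for Atf4 (−0.060), P4hb (−0.051), Edem2 (−0.025) and Derl1 (−0.014). They turned with edgeR for Edem2 (−0.0031), Derl3 (−0.12) and Chac1 (−0.33) and with DESeq2 for Derl3 (−0.081) and Chac1 (−0.29). They turned with library weights for Atf6 (−0.12), Atf4 (−0.18), Hyou1 (−0.008), P4hb (−0.009) and Sel1l (0.00018). With 1 library left out, the log2 fold change ranged from −0.32 to 0.20 for Ern1, −0.24 to 0.24 for Atf6, −0.044 to 0.49 for Xbp1, −0.27 to 0.19 for Atf4, −0.51 to 0.24 for Ddit3, −0.086 to 0.38 for Hspa5 and −0.016 to 0.30 for Hsp90b1. It ranged from −0.12 to 0.28 for Hyou1, −0.37 to 0.18 for Dnajb9, −0.0033 to 0.18 for Dnajb11, −0.088 to 0.43 for Manf, −0.081 to 0.15 for P4hb, −0.084 to 0.31 for Herpud1 and −0.088 to 0.033 for Sel1l. It ranged from −0.016 to 0.29 for Edem1, −0.076 to 0.046 for Edem2, −0.040 to 0.079 for Derl1, −0.72 to 0.064 for Trib3, −0.37 to 0.91 for Chac1 and −0.33 to 0.015 for Asns. The direction held for the other 12 genes, with ranges of −0.31 to −0.078 for Eif2ak3, 0.086 to 0.56 for Calr, 0.076 to 0.25 for Canx, 0.28 to 0.58 for Dnajc3, 0.20 to 0.71 for Sdf2l1 and 0.40 to 0.68 for Creld2. They were 0.11 to 0.39 for Pdia3, 0.12 to 0.30 for Pdia4, 0.018 to 0.30 for Pdia6, 0.12 to 0.40 for Syvn1, 0.008 to 1.08 for Derl3 and 0.038 to 0.54 for Ppp1r15a. The cause was not tested. Depth limits Ern1, Derl3, Trib3 and Chac1, whose values in some libraries rest on few reads.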
